A study of Mus musculus with 2 samples.

Results

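Uptake and recycling of glutamate, GABA and glycine were followed through 8 genes, chosen by symbol from the 53717 features of the gene lists. They are Slc1a2 (ENSMUSG00000005089), Slc1a3 (ENSMUSG00000005360), Slc1a4 (ENSMUSG00000020142), Glul (ENSMUSG00000026473), Slc6a9 (ENSMUSG00000028542), Slc6a11 (ENSMUSG00000030307), Slc7a10 (ENSMUSG00000030495) and Slc38a3 (ENSMUSG00000010064). Their unique molecular identifiers (UMIs, each standing for 1 captured RNA molecule) were read across cell classes named from markers, in astrocyte-like cells with and without a UMI of vector GFP, and in both libraries. All 8 had UMIs in both libraries, and no member was lost to a filter on low values in astrocyte-like cells.

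Single-cell RNA was measured in dissociated hippocampus of 5xFAD mice, whose human transgenes lead to amyloid plaques. The labels give 6 months as the time for each group, and the series text gives 3 mice a group at 3 weeks from the injection; the sources do not say whether the mice were pooled. The group called NeuroD1 here received AAV9-GFAP::NeuroD1-P2A-GFP, an adeno-associated virus in which a GFAP promoter, active mainly in astrocytes, drives the proneural factor NEUROD1 and GFP. The group called GFP here received AAV9-GFAP::GFP, the same promoter with GFP alone, and no group without vector or without the 5xFAD transgenes was analysed here. Each group was 1 library, so no test between groups was possible; every interval is a 95% interval that covers counting error only.

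The libraries differed in more than the vector, and every library ratio below carries these differences. The NeuroD1 library (the NeuroD1 sample below) kept 12786 cells with a median of 2556 UMIs, and the GFP library (the GFP sample) 11079 cells with a median of 1168. Sex-linked RNA was opposite, with Xist at 0.041 UMIs in 1000000 UMIs of the sum (CPM) in the NeuroD1 sample and 103 CPM in the GFP sample, and Ddx3y at 69.5 and 0.062 CPM. Transthyretin (Ttr) RNA, which the choroid plexus makes, made up 12.96% and 2.24% of UMIs of all kept cells, choroid plexus epithelium-like cells included. Ttr is a measure of free RNA when it appears in other cells, and in astrocyte-like cells it was at 9612 and 1943 CPM. In choroid plexus epithelium-like cells it was at 457493 and 294805 CPM. That lowers the CPM of all other genes there, more in the NeuroD1 sample. Values of that class were not recomputed with Ttr left out of the totals. There were 99 barcodes present in both libraries. The vector feature ND1 had 0 UMIs in both, and Neurod1 had 14 and 2 UMIs in astrocyte-like cells, so the delivered RNA did not check the labels. Vector GFP was at 46.5 CPM for astrocyte-like cells in the NeuroD1 sample and 5692 CPM for those in the GFP sample.

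Glutamate released at synapses is cleared mainly by astrocytes, through the sodium-coupled transporters GLT-1 (Slc1a2) and GLAST (Slc1a3). Glutamine synthetase (Glul) turns it into glutamine, which leaves the cell through carriers such as SNAT3 (Slc38a3) and serves neurons as a precursor of glutamate and GABA. GABA is taken up by GAT3 (Slc6a11), glycine by GLYT1 (Slc6a9), and small neutral amino acids such as serine, alanine and glycine move through ASCT1 (Slc1a4) and Asc-1 (Slc7a10).

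Promoter sequences are shown for the member with the highest and the member with the lowest library ratio in astrocyte-like cells, Glul and Slc1a4, and for Slc6a9, whose ratio was high in oligodendrocyte-like cells. NEUROD1 belongs to the basic helix-loop-helix factors, which bind E-box motifs, so CAGCTG and CAGATG were searched on both strands in the 250 bases before each RefSeq start (build GRCm38.p6, another build than the mm39 of the deposited files). The RefSeq table held 9 starts for 7 of the 8 members and none for Slc38a3. Each sequence runs 5′ to 3′ on the gene's strand in lower case, with a matched motif in capitals. The Glul window is chr1:153899679-153899928 on the plus strand, the Slc6a9 window chr4:117835008-117835257 on the plus strand, and the Slc1a4 window chr11:20332714-20332963 on the minus strand.
Glul: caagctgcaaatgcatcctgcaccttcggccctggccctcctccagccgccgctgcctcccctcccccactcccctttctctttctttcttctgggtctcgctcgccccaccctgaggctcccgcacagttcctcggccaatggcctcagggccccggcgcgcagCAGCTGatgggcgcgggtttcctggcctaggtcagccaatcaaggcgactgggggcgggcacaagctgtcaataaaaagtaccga
Slc6a9: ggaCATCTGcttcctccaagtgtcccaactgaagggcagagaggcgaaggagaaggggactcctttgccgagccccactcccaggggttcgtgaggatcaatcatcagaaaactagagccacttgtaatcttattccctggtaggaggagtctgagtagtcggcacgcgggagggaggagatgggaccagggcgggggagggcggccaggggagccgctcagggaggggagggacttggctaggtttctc
Slc1a4: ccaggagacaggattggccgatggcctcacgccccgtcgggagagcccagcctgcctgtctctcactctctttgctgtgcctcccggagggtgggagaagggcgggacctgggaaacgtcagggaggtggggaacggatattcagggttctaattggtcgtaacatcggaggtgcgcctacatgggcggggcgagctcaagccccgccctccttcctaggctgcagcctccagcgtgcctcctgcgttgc
The Glul window held 1 CAGCTG, and the window before 1 of the 3 starts of Slc6a9 held 1 CAGATG, read as CATCTG on the printed strand. The windows of Slc1a2, Slc1a3, Slc1a4, Slc6a11 and Slc7a10 held neither. Of 32851 promoter windows of this length in the table, 25.5% held at least 1 of these motifs, so 2 of the 9 windows of members is near that share. A match is a description of the letters and no binding was measured.

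The 2 glutamate transporters marked the astrocyte-like class, which was named without any of the 8 genes. That class held 2774 cells (21.7%) in the NeuroD1 sample and 1378 cells (12.4%) in the GFP sample, with medians of 3226 and 1482 UMIs, and all 14 astrocyte markers of the list were detected in both. Slc1a2 was at 6892 CPM (75606 UMIs) in the NeuroD1 sample and 9686 CPM (22363 UMIs) in the GFP sample. Its highest level in any other named class was 579 CPM, in immature neuron-like cells, in the NeuroD1 sample and 575 CPM, in neuron-like cells, in the GFP sample. Slc1a3 was at 4227 CPM (46377 UMIs) and 6940 CPM (16022 UMIs) in astrocyte-like cells, and next at 596 CPM in immature neuron-like cells of the NeuroD1 sample and 682 CPM in the 7 ependyma-like cells of the GFP sample. No other named class came near the astrocyte-like level of either transporter.

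After every cell was thinned to 500 UMIs, Slc1a2 was seen in 93.2% and 97.7% of astrocyte-like cells (NeuroD1 sample first, here and below) and Slc1a3 in 86.7% and 92.7%. In microglia-like cells thinned shares were 6.48% and 7.35% for Slc1a2 and 7.05% and 6.92% for Slc1a3, at unthinned medians of 1811 and 1405 UMIs. Oligodendrocyte-like cells had thinned Slc1a2 shares of 6.09% and 8.21%, close to the microglia-like shares. Unthinned, microglia-like cells had Slc1a3 at 164 and 130 CPM and Slc1a2 at 134 and 158 CPM. In the NeuroD1 sample that order is the reverse of the one in astrocyte-like cells. Whether microglia-like cells make Slc1a3 was not tested. Slc1a3 stood apart from Slc1a2 in ependyma-like cells, at 335 CPM against 79.7 CPM in the NeuroD1 sample and 682 against 303 CPM in the GFP sample, but these rest on 35 and 7 cells. In the NeuroD1 sample, immature neuron-like cells held 211 UMIs of Slc1a2 and 217 UMIs of Slc1a3 in 121 cells, and after thinning 8.26% and 9.92% of them had a UMI.

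**Figure D1:**
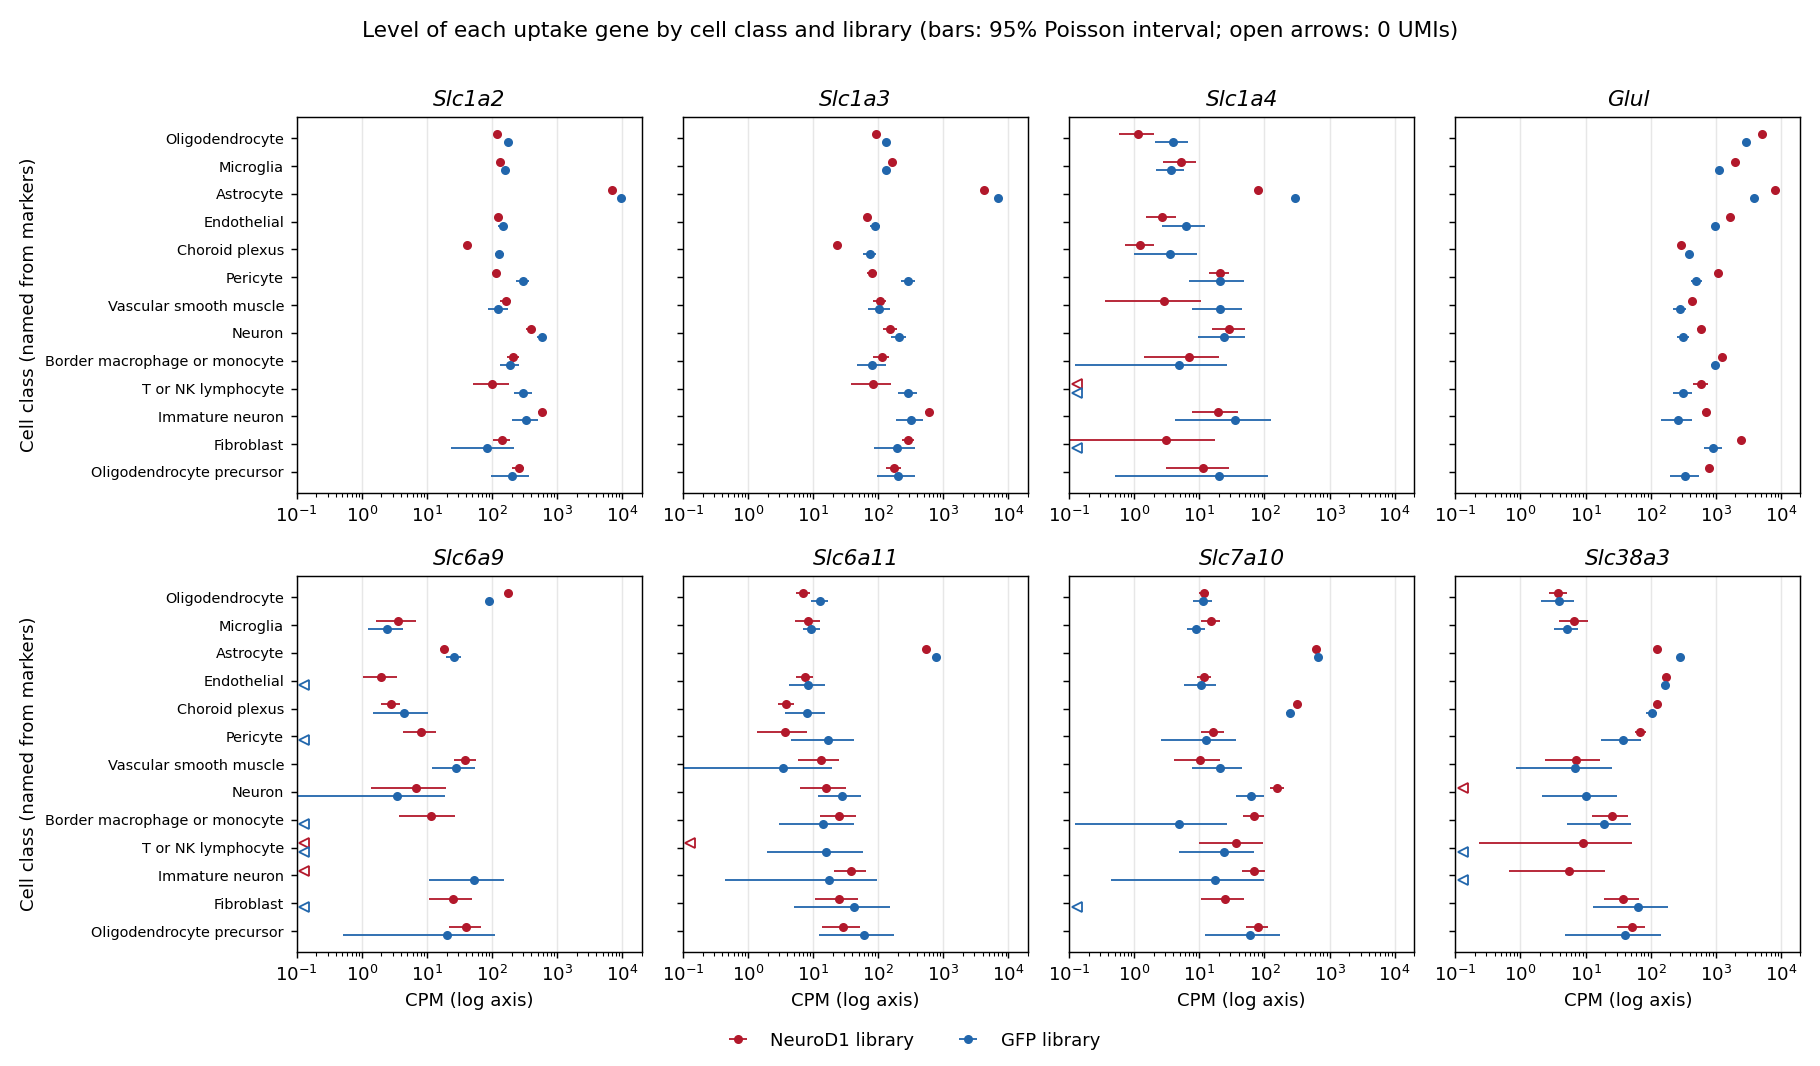
Level of the 8 uptake genes in 13 named cell classes (ependyma-like cells, 35 and 7 cells, are not drawn). Points are CPM on a log axis for the NeuroD1 (red) and GFP (blue) libraries, bars are 95% Poisson intervals, and open arrows mark sums of 0 UMIs. Slc1a2, Slc1a3, Slc1a4, Glul, Slc6a11 and Slc7a10 peak in astrocyte-like cells in both samples, Slc6a9 peaks in oligodendrocyte-like cells, and Slc38a3 is higher in endothelial-like than in astrocyte-like cells of the NeuroD1 sample.

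Of the other members, 4 had a further class. Slc6a11 followed the glutamate transporters, and Slc1a4 was highest in astrocyte-like cells but less apart from other classes. GAT3 (Slc6a11) was at 545 CPM (5977 UMIs) and 784 CPM (1809 UMIs) there and at most 38.4 and 59.9 CPM in any other named class. ASCT1 (Slc1a4) was at 79.2 and 296 CPM there and at most 31.9 and 34.8 CPM elsewhere, from 8 and 2 UMIs. It was at 28.9 CPM (13 UMIs) and 24.1 CPM (7 UMIs) in neuron-like cells. In pericyte-like cells it was at 20.4 CPM (33 UMIs) and 21.0 CPM (5 UMIs). In all, 6 of 8 members were highest in astrocyte-like cells in the NeuroD1 sample and 7 of 8 in the GFP sample; the exceptions were Slc6a9 in both and Slc38a3 in the NeuroD1 sample.

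Slc6a9, the glycine transporter GLYT1, was an oligodendrocyte gene in these cells. It was at 177 CPM (1858 UMIs) in oligodendrocyte-like cells of the NeuroD1 sample and 90.1 CPM (298 UMIs) in those of the GFP sample, which held 84.5% and 73.2% of all its UMIs. In astrocyte-like cells it was at 18.05 CPM (198 UMIs) and 25.6 CPM (59 UMIs). The oligodendrocyte-like level was 9.78 times the astrocyte-like level in the NeuroD1 sample (interval 8.45 to 11.4) and 3.53 times in the GFP sample (2.66 to 4.75). Among the other classes with at least 100 cells in each library it was highest in vascular smooth muscle-like cells, at 39.0 CPM (27 UMIs) and 27.8 CPM (8 UMIs), against 3.58 and 2.45 CPM in microglia-like cells.

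Slc7a10, the serine, alanine and glycine exchanger Asc-1, was highest in astrocyte-like cells, at 625 and 668 CPM. Its second class was choroid plexus epithelium-like cells, which secrete cerebrospinal fluid, at 311 CPM (3999 UMIs) and 245 CPM (272 UMIs). That was 0.497 times the astrocyte-like level in the NeuroD1 sample (interval 0.478 to 0.517) and 0.366 times in the GFP sample (0.321 to 0.417). The Ttr in the choroid plexus totals lowers both values, more in the NeuroD1 sample. In the same choroid plexus sums Slc6a11 stood at 3.88 and 8.09 CPM, or 0.713% and 1.03% of its astrocyte-like level, so Slc7a10 did not follow the other astrocyte RNA there. A neuron-like cluster led by Ndnf and Reln, the genes of Cajal-Retzius cells, also held Slc7a10, at 176 CPM (70 UMIs) and 130 CPM (11 UMIs).

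Slc38a3, the glutamine carrier SNAT3, was shared between astrocyte-like cells and the barrier classes. In choroid plexus epithelium-like cells it was at 123 and 104 CPM. The Ttr in their totals lowers these 2 values, so their place beside the other classes is not settled. It reached 124 CPM (1359 UMIs) and 286 CPM (661 UMIs) in astrocyte-like cells, and 173 and 166 CPM in endothelial-like cells. Endothelial-like cells therefore stood at 1.39 times the astrocyte-like level in the NeuroD1 sample (interval 1.28 to 1.51) and 0.581 times in the GFP sample (0.496 to 0.679). The order of these 2 classes was opposite in the samples, while the endothelial-like level itself differed by a ratio of 1.04 with an interval spanning 1. The class was filled from different clusters in the samples: within cluster 3 (1688 and 132 cells) the ratio was 1.63 (interval 1.11 to 2.49), and within cluster 11 (208 and 869 cells) it was 1.01 (0.693 to 1.43). Pericyte-like cells were divided, with 1 cluster at 107 CPM (101 UMIs) and 114 CPM (7 UMIs). The other was at 16.5 CPM (11 UMIs) and 11.3 CPM (2 UMIs). The first cluster was deeper, with medians of 4471.5 and 1550 UMIs against 1132.5 and 612. Whether its barcodes also hold endothelial RNA was not tested.

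Glul was the most widely spread member. It reached 8089 and 3926 CPM in astrocyte-like cells, 5126 and 2887 CPM in oligodendrocyte-like cells, 1940 and 1105 CPM in microglia-like cells and 1678 and 970 CPM in endothelial-like cells. With Ttr in the totals, the lowest of the larger classes in the NeuroD1 sample was choroid plexus epithelium-like cells, at 290 and 384 CPM. That place was not checked without Ttr. Thinned shares were 94.5% and 81.3% in astrocyte-like, 84.7% and 66.3% in oligodendrocyte-like and 13.7% and 16.5% in choroid plexus epithelium-like cells. Astrocyte-like cells held 51.8% of Glul UMIs in the NeuroD1 sample and 30.3% in the GFP sample, and oligodendrocyte-like cells 31.5% and 31.9%.

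The first comparison asked how the 8 genes differed between the samples in astrocyte-like cells. Glul was the only member at least 1.5-fold higher in the NeuroD1 sample, at 2.06 times the GFP sample's level (interval 2.02 to 2.11). Slc1a4, Slc38a3 and Slc1a3 were at least 1.5-fold lower. Over all 13011 genes tested, those with 20 or more UMIs over both sums, 11.4% were higher and 25.3% lower by this fold, so 1 of 8 higher and 3 of 8 lower is no clear departure from the background. The median log2 ratio was -0.52 over the 8 members and -0.16 over all genes tested.

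Slc1a4, the neutral amino acid carrier ASCT1, had the lowest ratio. Its 79.2 CPM against 296 CPM was 3.73-fold lower in the NeuroD1 sample (interval 3.37 to 4.13), and 2.54% of tested genes had a lower ratio. Slc38a3, the glutamine carrier, was 2.31-fold lower (interval 2.10 to 2.54). Slc1a3 (GLAST) was 1.64-fold lower (interval 1.61 to 1.67). These 3 kept their side of 1 under all 13 alternatives of processing, although Slc1a3 came within 1.5-fold with median ratio scaling (0.692) and TMM factors (0.713), and both it and Slc38a3 did in the single cluster described next.

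The other transporters lay within 1.5-fold. The ratio was 0.711 (interval 0.701 to 0.722) for Slc1a2, 0.695 (0.660 to 0.733) for the GABA transporter Slc6a11 and 0.706 (0.526 to 0.961) for Slc6a9. For Slc7a10 it was 0.936 (interval 0.885 to 0.990). Directions were not fixed for all: Slc7a10 was at 1.06 and 1.10 when scaled by the median ratio of genes and by TMM factors, Slc6a9 was at 1.10 after thinning, and Slc1a2 was at 1.08 in cluster 5. The 2 scalings raised every ratio by 0.18 and 0.23 on the log2 scale.

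**Figure D2:**
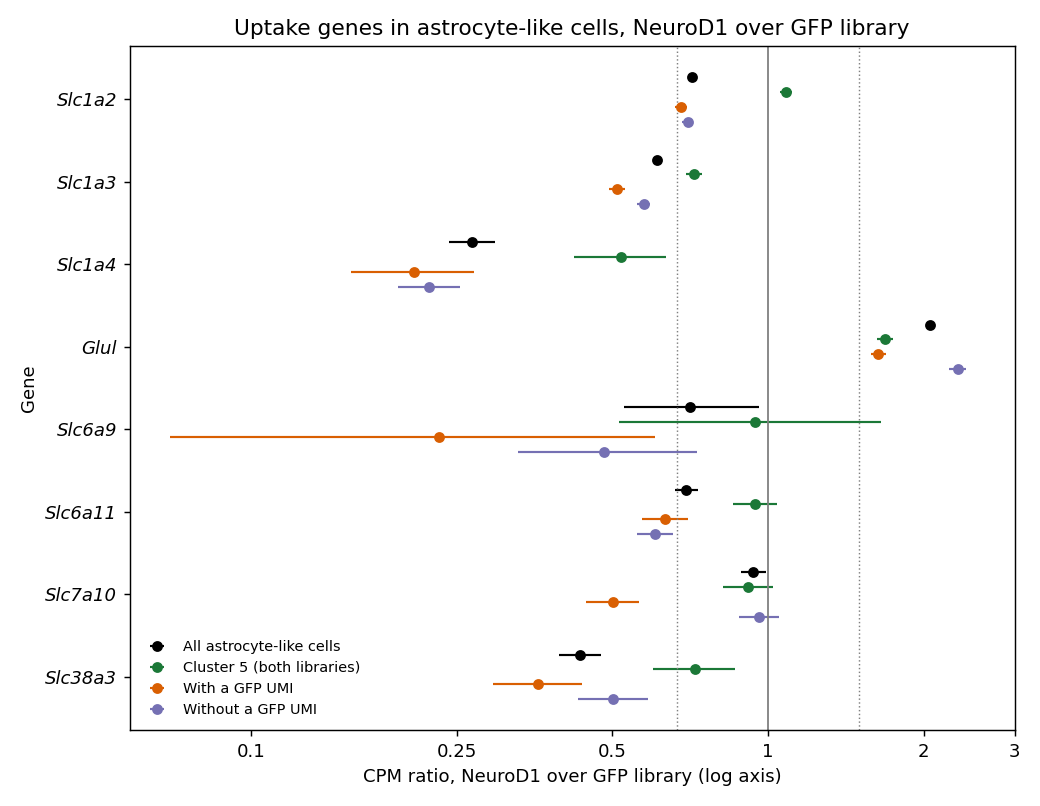
CPM ratio of each member, NeuroD1 over GFP sample, on a log axis, in all astrocyte-like cells (black), cluster 5 alone (green), and cells with (orange) or without (purple) a GFP UMI. Bars are 95% intervals for counting error, the solid line marks equal levels and dotted lines mark 1.5-fold. Glul lies above 1.5-fold in all 4 sets of cells and Slc1a4 below it in all 4, while Slc1a2 crosses 1 in cluster 5.

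The samples filled the astrocyte-like class from different clusters. Cluster 5 held 333 cells of the NeuroD1 sample and 1306 of the GFP sample, cluster 6 held 1225 and 40, and cluster 8, led by Thrsp, Cpe and Gfap, held 1216 and 32. Within cluster 5 alone Glul was still 1.68 times as high in the NeuroD1 sample (interval 1.62 to 1.74) and Slc1a4 1.92-fold lower (1.57 to 2.37). The other 6 members lay within 1.5-fold there: 1.08 for Slc1a2, 0.720 for Slc1a3, 0.721 for Slc38a3, 0.944 for Slc6a11, 0.945 for Slc6a9 and 0.914 for Slc7a10. Of 9906 genes tested in cluster 5, 10.5% were higher and 20.1% lower by the same fold.

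Glul was higher in the NeuroD1 sample in every astrocyte-like cluster, at 1.54 times in cluster 6 (interval 1.38 to 1.73) and 1.56 times in cluster 8 (1.43 to 1.69). Slc1a3 was lower in each of the 3, with ratios of 0.720, 0.777 and 0.759. Slc1a4 was at 0.355 in cluster 6 (interval 0.227 to 0.587), but in cluster 8 the 4 UMIs of the GFP sample gave 1.43 with an interval of 0.555 to 5.29. A low-UMI cluster of 905 and 786 cells, led by GFP and Gm42418 with Slc1a2 and Ptprz1 among its leading genes, was left unnamed. In it Glul was at 1.71 (interval 1.63 to 1.80), Slc1a4 at 0.309 (0.215 to 0.440), Slc38a3 at 0.389 (0.282 to 0.533) and Slc1a3 at 0.619 (0.588 to 0.651).

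**Figure D3:**
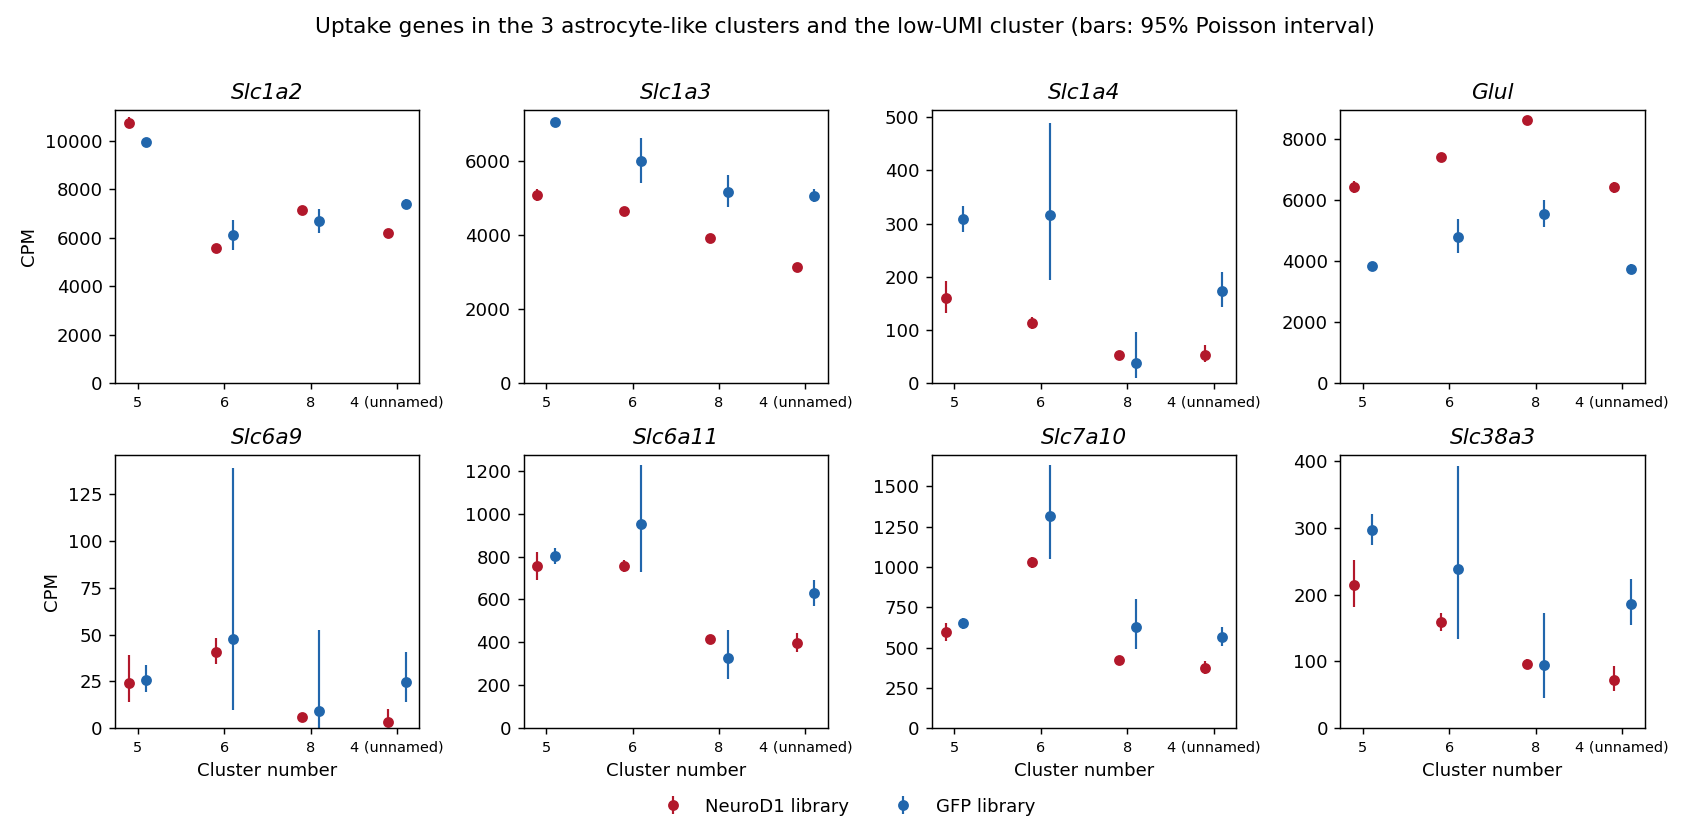
CPM of each member in the 3 astrocyte-like clusters and in the unnamed low-UMI cluster, for the NeuroD1 (red) and GFP (blue) libraries; bars are 95% Poisson intervals and axes start at 0. Glul is higher in the NeuroD1 sample in all 4 clusters, and Slc1a4, Slc6a11, Slc7a10 and Slc38a3 are lower in cluster 8 than in cluster 6 in both samples. Slc6a9 is lower in cluster 8 in the NeuroD1 sample, while in the GFP sample 3 UMIs in cluster 6 and 1 in cluster 8 give no direction.

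The transporters also varied among the astrocyte-like clusters of a library. In the NeuroD1 sample cluster 6 exceeded cluster 8 for Slc6a9 (6.92 times, interval 4.84 to 10.1), Slc7a10 (2.44 times, 2.32 to 2.56) and Slc1a4 (2.09 times). It also did so for Slc6a11 (1.81 times), Slc38a3 (1.65 times) and Slc1a3 (1.19 times), while Slc1a2 (0.783 times) and Glul (0.858 times) were lower. Gfap, the intermediate filament of reactive astrocytes, was at 497 CPM in cluster 6 and 2671 CPM in cluster 8. In the GFP sample, from 40 and 32 cells, the ratio of cluster 6 to cluster 8 was 2.09 for Slc7a10, 2.89 for Slc6a11 and 0.865 for Glul.

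Depth moved with these levels. In the NeuroD1 sample, with astrocyte-like cells cut into 3 equal sets by depth, from the shallowest (median 1772 UMIs) to the deepest (6352 UMIs), Slc1a4 went from 134 to 50.6 CPM, Slc7a10 from 1049.9 to 477 CPM and Glul from 6313 to 8928 CPM. In the GFP sample (median 968 to 2359 UMIs) Slc1a4 went from 372 to 251 CPM, Slc7a10 from 799 to 587 CPM and Glul from 3754 to 3914 CPM. Thinning every cell to 500 UMIs left ratios of 1.90 for Glul, 0.271 for Slc1a4, 0.483 for Slc38a3 and 0.637 for Slc1a3, close to the unthinned values. The microglia marker list summed to 169 and 1417 CPM in astrocyte-like cells, with none of its 12 markers at 0, against 63245 and 47429 CPM in microglia-like cells. The oligodendrocyte list, also with none of its 12 at 0, was at 937 and 1141 CPM, and the choroid plexus list, dominated by Ttr, at 10137 and 2133 CPM. The part of cluster makeup, depth and free RNA in these ratios was not tested beyond the values given.

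The number of uptake genes seen per astrocyte-like cell was alike. The median was 5 of 8 in both samples before thinning and 3 of 8 after it. At least 4 members were seen in 43.3% of thinned cells of the NeuroD1 sample and 49.9% of those of the GFP sample.

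The second comparison asked whether the library difference in a member was shared by other classes. For Glul it was in most class sums, though not within every cluster, as given below. Of 9 classes with at least 100 cells in each library, the astrocyte-like class among them, the Glul interval lay above 1 in 8. Its ratio reached 1.5 in 7 of the 9. Ratios were 2.12 in pericyte-like, 1.87 in neuron-like, 1.78 in oligodendrocyte-like, 1.76 in microglia-like, 1.73 in endothelial-like, 1.56 in vascular smooth muscle-like and 1.31 in border macrophage or monocyte-like cells. The exception was choroid plexus epithelium-like cells at 0.755 (interval 0.683 to 0.836). Ttr took 457493 and 294805 CPM of the totals there, which lowers the ratio of every other gene. The Glul ratio of that class without Ttr was not computed. Of all genes tested, 12.5% were at least 1.5-fold higher and 15.2% lower in oligodendrocyte-like cells, 35.7% and 15.9% in microglia-like, 23.6% and 12% in endothelial-like and 28.1% and 15.8% in pericyte-like cells. The same shares were 36.9% and 25.5% in neuron-like, 21.2% and 15% in vascular smooth muscle-like, 20.7% and 17.7% in border macrophage or monocyte-like and 11.9% and 31.2% in choroid plexus epithelium-like cells.

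The class ratio of Glul held within single clusters in some classes and not in others. In oligodendrocyte-like cells the Glul ratio was as high within each large cluster, at 1.81 in cluster 0 (interval 1.70 to 1.92) and 1.70 in cluster 1 (1.64 to 1.77). In microglia-like cells it was below 1 within both clusters that held at least 50 cells of each library, at 0.901 in cluster 7 (0.836 to 0.972) and 0.805 in cluster 13 (0.712 to 0.914). The class ratio of 1.76 there came with cluster 2, led by Cst7 and Cd14, which held 18 cells of the NeuroD1 sample and 2270 of the GFP sample and had Glul at 739 and 934 CPM. The largest endothelial-like cluster was at 0.971 (interval 0.886 to 1.07) and the larger pericyte-like cluster at 0.975 (0.726 to 1.33). The second clusters of the endothelial-like and pericyte-like classes were at 1.44 (interval 1.23 to 1.67) and 1.58 (1.23 to 2.08). Over clusters with at least 20 cells of each sample, the Glul ratio was at least 1.5 in every cluster of the astrocyte-like and oligodendrocyte-like classes. So it was in the single clusters of the vascular smooth muscle-like (1.56), neuron-like (1.71), T or NK lymphocyte-like (1.88), oligodendrocyte precursor-like (2.31), fibroblast-like (2.67) and immature neuron-like (2.68) classes, from 15 to 80 UMIs in the GFP sample. It was below 1.5 in at least 1 cluster of the microglia-like, endothelial-like and pericyte-like classes and in the clusters of the choroid plexus epithelium-like (0.755) and border macrophage or monocyte-like (1.31) classes.

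**Figure D4:**
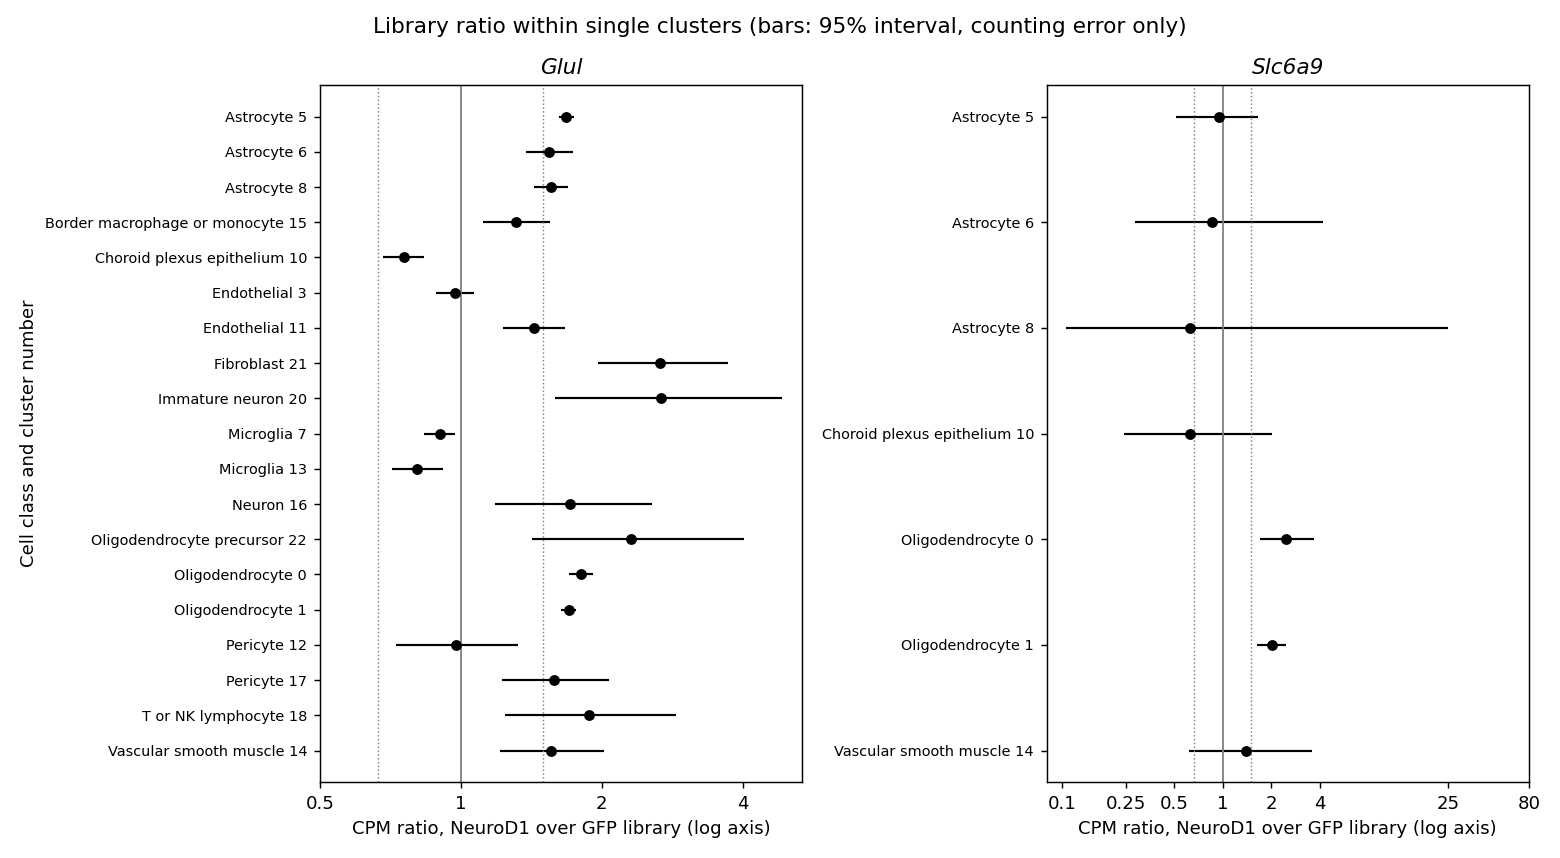
CPM ratio, NeuroD1 over GFP sample, within single named clusters for Glul (left) and Slc6a9 (right), where the gene had at least 20 UMIs over both sums and each library at least 20 cells. Bars are 95% intervals for counting error on log axes, the solid line marks equal levels and dotted lines mark 1.5-fold. Glul is above 1.5-fold in the 3 astrocyte-like and 2 oligodendrocyte-like clusters, among others, and below 1 in microglia-like clusters 7 and 13; Slc6a9 is above 1.5-fold in both oligodendrocyte-like clusters only.

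Slc6a9 differed in its main class. In oligodendrocyte-like cells the ratio was 1.96 (interval 1.73 to 2.22), and 95.6% of the 12180 genes tested there had a lower ratio. Within clusters it was 177 against 71.9 CPM in cluster 0 (ratio 2.47, interval 1.71 to 3.69) and 187 against 92.8 CPM in cluster 1 (ratio 2.02, 1.64 to 2.47). Levels within a library differed less between the clusters, with cluster 0 at 0.947 and 0.775 times cluster 1 and both intervals spanning 1.

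Over the 10 pairs of a member and another class in which it reached 25% of its highest level, 4 were at least 1.5-fold higher in the NeuroD1 sample and 0 lower. Over all genes tested, 12.5% were as much higher in oligodendrocyte-like cells, 35.7% in microglia-like cells and 28.1% in pericyte-like cells. The 4 were Glul in oligodendrocyte-like and microglia-like cells, Slc6a9 in oligodendrocyte-like cells and Slc38a3 in pericyte-like cells; the last, from 112 and 9 UMIs, had a ratio of 1.83 with an interval of 0.932 to 4.12 and was at 1.03 after thinning. It was at 1.45 and 0.935 within the pericyte-like clusters, and Glul was below 1 within microglia-like clusters 7 and 13. Slc7a10 in choroid plexus epithelium-like cells was at 1.27 (interval 1.12 to 1.44). Slc38a3 was at 1.18 there (0.978 to 1.44) and at 1.04 in endothelial-like cells (0.894 to 1.205), against 0.433 in astrocyte-like cells. Both choroid plexus ratios were taken with Ttr in the totals, which lowers them. The count of 4 was not redone without Ttr. Slc1a4 had few UMIs outside astrocyte-like cells, with 33 and 5 in pericyte-like and 13 and 7 in neuron-like cells, and both intervals spanned 1.

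The third comparison set astrocyte-like cells with a GFP UMI beside those without, within each library. A GFP UMI was seen in 195 of 2774 cells of the NeuroD1 sample (7.03%, exact interval 6.11 to 8.05) and 900 of 1378 of the GFP sample (65.3%, 62.7 to 67.8). Microglia-like cells had one in 0.0820% and 6.16% of cells. Cells with a GFP UMI were deeper, with medians of 5706 against 3087 UMIs in the NeuroD1 sample and 1556 against 1389.5 in the GFP sample. They also came from other clusters in the NeuroD1 sample, where cluster 8 held 89.7% of them and 40.4% of the rest; in the GFP sample cluster 5 held 95.2% and 93.9%.

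In the NeuroD1 sample, 3 of 8 members were at least 1.5-fold lower in cells with a GFP UMI, Slc7a10, Slc6a9 and Slc1a4, and 0 were at least 1.5-fold higher; over the 12398 genes tested 15.5% were lower and 11.8% higher. Slc7a10 was at 332 CPM with and 661 CPM without a GFP UMI, a ratio of 0.502 (interval 0.452 to 0.556). Slc6a9 had 5 and 193 UMIs, a ratio of 0.213 (0.068 to 0.505), and Slc1a4 had 64 and 805 UMIs, a ratio of 0.653 (0.498 to 0.843). Glul was at 6777 and 8250 CPM (ratio 0.821, interval 0.803 to 0.840), Slc1a3 at 0.792, Slc6a11 at 0.822, Slc1a2 at 0.946 and Slc38a3 at 0.876 (0.726 to 1.05). Gfap was 3.50 times as high in the same cells.

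Within cluster 8 alone, where 175 cells had a GFP UMI and 1041 did not, the differences were smaller for most members. At least 1.5-fold lower was 1 of 8, Slc6a9, from 3 and 37 UMIs (ratio 0.418, interval 0.082 to 1.32), while 11.9% of the 11307 genes tested there were. Slc7a10 was at 0.676 (interval 0.601 to 0.758), Glul at 0.761 (0.743 to 0.780), Slc1a3 at 0.845 and Slc1a2 at 0.896. Slc1a4 was at 0.909 (interval 0.669 to 1.21), Slc6a11 at 1.06 and Slc38a3 at 1.08, with intervals spanning 1. Glul was thus lower in cells with a GFP UMI of the NeuroD1 sample both over the 3 clusters and within cluster 8. The 2 sets of cluster 8 cells still differed in Gfap, which was 2.61 times as high with a GFP UMI (interval 2.53 to 2.69).

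**Figure D5:**
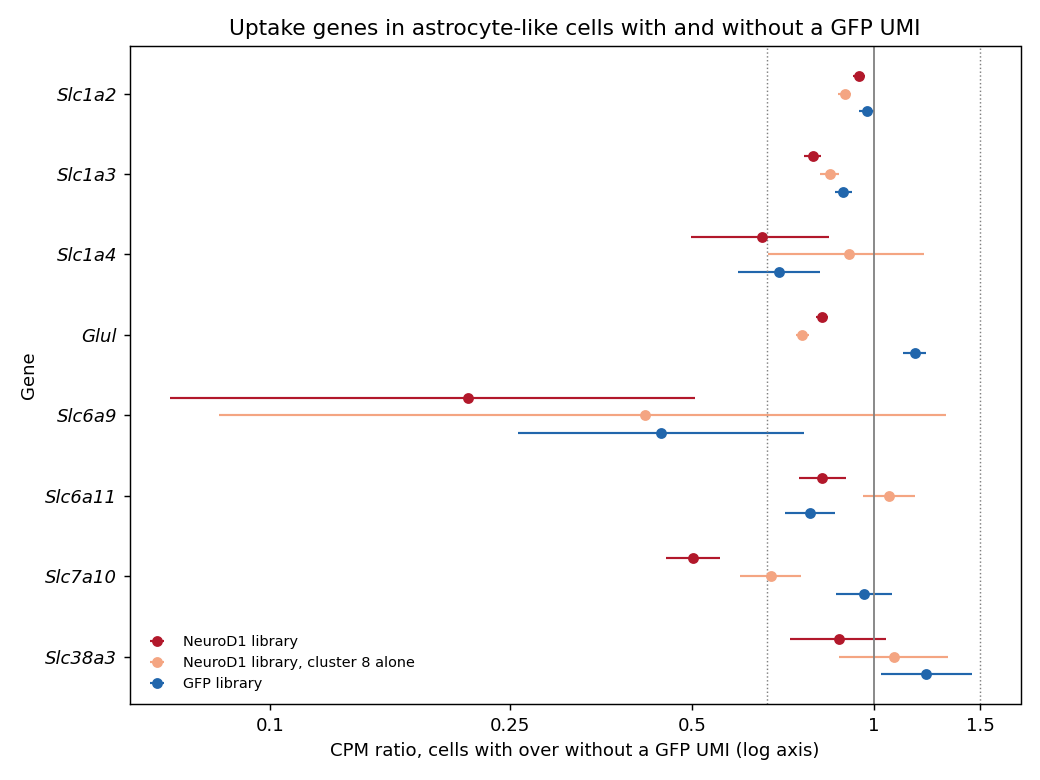
CPM ratio of each member in astrocyte-like cells with over without a GFP UMI, on a log axis, in the NeuroD1 sample (red), its cluster 8 alone (salmon) and the GFP sample (blue). Bars are 95% intervals for counting error, the solid line marks equal levels and dotted lines mark 1.5-fold. Glul lies below 1 in the NeuroD1 sample and above 1 in the GFP sample, and Slc7a10 is lower with GFP in the NeuroD1 sample.

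In the GFP sample the same contrast gave 1 of 8 members at least 1.5-fold lower, Slc6a9 (28 and 31 UMIs, ratio 0.445, interval 0.257 to 0.767), and 0 higher, where 9.09% of the 9297 genes tested were lower and 10.9% higher. Glul was at 4146 and 3548 CPM, 1.17 times as high with a GFP UMI (interval 1.12 to 1.22), and Slc38a3 1.22 times as high (1.03 to 1.45). Slc1a4 was at 0.696 (interval 0.596 to 0.814), Slc6a11 at 0.784 and Slc1a3 at 0.891. Slc7a10 at 0.963 and Slc1a2 at 0.974 had intervals spanning 1, and Gfap was at 1.02. Glul had intervals on opposite sides of 1 in the samples.

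With the samples set against each other at equal GFP status, each member kept the side of 1 that it had in all astrocyte-like cells. Glul was 1.63 times as high in the NeuroD1 sample among cells with a GFP UMI (interval 1.58 to 1.69) and 2.33 times as high among cells without (2.24 to 2.42). Slc1a4 was at 0.207 and 0.220, Slc38a3 at 0.359 and 0.501, and Slc1a3 at 0.511 and 0.574. At least 1.5-fold lower were 6 of 8 members with and 5 of 8 without a GFP UMI, against 27.9% and 27.2% of all genes tested, and 1 of 8 was higher in each, against 13.2% and 18.2%. Slc7a10 was at 0.5002 with and 0.959 without, the latter with an interval of 0.877 to 1.05. Slc6a9 was at 0.231 with (5 and 28 UMIs) and 0.482 without (193 and 31 UMIs), so the ranking of members changed. Cells with a GFP UMI came mostly from cluster 8 in the NeuroD1 sample and from cluster 5 in the GFP sample.

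A list of 46 further genes of these pathways, transporters of the same families and the enzymes around glutamate, GABA, glycine and serine, was read in astrocyte-like cells; 45 were matched by symbol and 32 had at least 20 UMIs. At least 1.5-fold higher in the NeuroD1 sample were 3 of 32 and lower 7 of 32, beside the 11.4% and 25.3% of all genes above, with a median log2 ratio of -0.09. Among the lower genes were Slc7a5 (LAT1, a carrier of large neutral amino acids) at 0.438 (interval 0.337 to 0.573) and Amt, of the glycine cleavage system, at 0.536 (0.435 to 0.664). Slc7a5 was highest in endothelial-like cells, at 777 and 509 CPM, against 16.3 and 37.2 CPM in astrocyte-like cells. Slc38a1, a glutamine carrier, was at 20.9 and 12.6 CPM (229 and 29 UMIs, ratio 1.66, interval 1.13 to 2.54) and at 0.944 after thinning. The neuronal glutamate transporter Slc1a1 had 9 and 3 UMIs in astrocyte-like cells and was highest in oligodendrocyte precursor-like cells, at 292 and 160 CPM. Slc6a13, the GABA transporter GAT2, had 3 and 1 UMIs in astrocyte-like cells and was highest in fibroblast-like cells, at 966 and 487 CPM.

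The genes most like each member were taken by Pearson correlation of log2(CPM + 1) over 20 points, the sums of 10 classes in 2 libraries, among 9186 genes. Points of a library share its depth and free RNA, so these are descriptions. Slc1a2 was most like Mlc1 (0.988), Bcan (0.988) and Ptprz1 (0.981). Slc1a3 was most like Slc1a2 (0.973), and Slc6a11 was most like Aqp4 (0.971) and Slc25a18 (0.969). The other members had lower correlations with their nearest gene: Clu (0.924) for Slc7a10, Lap3 (0.889) for Glul, Tubb2b (0.886) for Slc1a4, Fgf1 (0.883) for Slc6a9 and Myo10 (0.867) for Slc38a3. Among members, the closest pairs were Slc1a2 with Slc1a3 (0.973) and Slc1a2 with Slc6a11 (0.936), and Slc6a9 with Slc38a3 was lowest (-0.112).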

How the data were processed

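The data are single-cell RNA libraries of 5xFAD hippocampus, 1 per group. Per the labels' protocols, tissue was dissociated with papain and cells were captured in a SCOPE-chip, while another label field names a different platform. The matrices, as deposited, are raw UMI counts of each gene in each barcode, with no normalization. Per the submitters' processing notes, the tools were FastQC, fastp, cutadapt, STAR and featureCounts on build mm39, with no version or role; the annotation and strand setting are not given in the sources used here. Deposited totals were 51236521 UMIs in 13402 barcodes (NeuroD1) and 17504950 UMIs in 11739 barcodes (GFP), with at least 500 UMIs per barcode.

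Barcodes under 200 genes or over 20% mitochondrial UMIs were removed (131 and 104), and scrublet doublets (3.65% and 4.78%) were removed. Cells were scaled to 10000 UMIs, log1p transformed and clustered jointly in scanpy 1.11.5 on 3000 variable genes, 30 principal components, 15 neighbours and Leiden resolution 1.0 (leidenalg 0.10.2). Mitochondrial, ribosomal, haemoglobin, sex-linked, immediate early, vector and Neurod1 features and the 8 members were left out of the clustering genes. The 27 clusters gave 14 classes named from at least 3 markers among the 50 leading genes, and 3 unnamed clusters. Names are rebuilt here and may differ from the study's.

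Counts were summed per class and library and scaled to CPM, with exact Poisson 95% intervals; ratios have exact conditional binomial and shares Clopper-Pearson 95% intervals (scipy 1.17.1). A gene counts as higher or lower at 1.5-fold, given 20 or more UMIs over the pair of sums. GFP was left out of the totals for contrasts between cells with and without a GFP UMI. Thinning drew 500 UMIs from each cell, and no cell was shallower. Alternative filters, clusterings and scalings are described at the end. Classes compared between libraries had at least 100 cells in each. Pathway genes were named if at least 1.5-fold apart with at least 50 UMIs, ranked by the interval end nearest to 1, up to 6 in each direction, plus genes listed by name, of which Slc1a1 and Slc6a13 are given; some genes that this rule allows are not reported here; the 3 most correlated genes (classes with at least 50 cells, genes with at least 50 CPM in 1 sum) were computed per member. The members and lists were chosen with earlier results of these data known. Poisson counts were simulated from the astrocyte-like sums over 13011 genes. Intervals held the true ratio for 96.1% of unchanged genes and 94.0% to 98.0% of changed ones. Such counts follow the model that the intervals assume, so this checks the calculation only and covers no spread between cells or animals.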

Additional observations from a re-analysis of the deposited data

Results flagged for a closer look

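Glul went opposite ways with vector GFP in the 2 libraries. Astrocyte-like cells with a GFP UMI had 1.17 times the Glul level of those without in the GFP sample and 0.821 times in the NeuroD1 sample. The difference between these effects was not tested, because each library is 1 sample.

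Slc6a9 had opposite library differences in 2 classes, at 1.96 times in oligodendrocyte-like cells of the NeuroD1 sample and 0.706 times in astrocyte-like cells. The astrocyte-like value rests on 198 and 59 UMIs and was 1.10 after thinning, and the difference between the classes was not tested.

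Slc7a10 was at 1.27 times in choroid plexus epithelium-like cells and 0.936 times in astrocyte-like cells. The choroid plexus value was taken with Ttr in the totals, which lowers it. The astrocyte-like value was above 1 under 6 of 13 alternatives, and the difference between the classes was not tested.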

How the results depend on the processing

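No paired analysis was possible because each group has 1 library and the groups share 1 replicate number. For the same reason no library could be left out in turn. Over 13 alternatives, 96 of 104 member ratios between libraries in astrocyte-like cells kept their side of 1; Glul ranged from 1.68 to 2.41 and Slc1a4 from 0.253 to 0.520, and Slc1a2, Slc6a9 and Slc7a10 were the members that crossed 1. With cluster 5 alone, 1 member was lower in place of 3. Adding the low-UMI cluster, and taking cluster 8 alone for the GFP contrast, were chosen after seeing the data.

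Of the pathway genes, 3 were higher in the NeuroD1 sample, against 1 with called doublets kept, 6 with median ratio scaling, 7 with TMM factors, 0 after thinning, 7 with no minimum of UMIs and 7 with free RNA subtracted. Lower were 7, against 4 after thinning, 13 with no minimum and 4 in cluster 5 alone. Slc38a1 turned to 0.944 after thinning and Gad1 (34 and 4 UMIs, ratio 1.79) to 0.731 as a mean over cells. The cause was not tested.

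In the GFP contrast of the NeuroD1 sample, 3 members were lower, against 1 with the members kept in the clustering genes, 5 with at least 3 GFP UMIs against 0, and 1 in cluster 8 alone. In its cluster 5 alone, where 5 cells had a GFP UMI, 2 were higher and 1 lower: Slc1a4 (2.42), Slc6a11 (1.72), Slc1a3 (1.24), Slc1a2 (1.22) and Slc7a10 (1.14) were above 1, against below 1 in all astrocyte-like cells. In the GFP sample 1 member was lower, against 0 after thinning, 2 in cluster 5 alone and 2 with at least 3 GFP UMIs. Free RNA was estimated from microglia-like cells, which hold Glul of their own, so that its subtraction takes too much from Glul. Whether they also make Slc1a3 was not tested. Slc6a9, with 59 UMIs in astrocyte-like cells of the GFP sample, had the widest interval of the 8 library ratios there, 0.526 to 0.961.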
